A study of Mus musculus with 12 samples.

Results

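Heat shock chaperones keep other proteins folded, and the genes described here are 10 of them together with co-chaperones of HSP90: Hsf1, Hspa8, Hsph1, Hsp90aa1, Hsp90ab1, Dnajb1, Hspb1, Hspb8, Stip1 and Fkbp4. A gene was taken as measured where the platform's probe annotation named it as the only symbol of an array feature, and the feature with the highest mean signal stood for the gene. By this rule 8 of the 10 genes had a feature of their own, among 30702 genes named on the array, and 11 features carried one of them as their only symbol. Hsf1 and Hsp90ab1 had none and are not analysed here. Hspa8 had 4 such features, and all 4 lay at the array's ceiling of 19.93 on all 12 arrays, so these could show no difference. Features that name Hspa8 beside other genes are described below with those of Hsp90aa1. The remaining 7 genes are the subject of the comparisons below.

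HSP70 and HSP90 are ATP-driven chaperones that bind unfolded segments of client proteins and release them again, and co-chaperones load, time and direct that cycle. The transcription factor HSF1 drives many of these genes when misfolded proteins accumulate or temperature rises, by binding repeated inverted GAA units, the heat shock element. In hepatocytes the HSP90 cycle serves the glucocorticoid receptor and the aryl hydrocarbon receptor, among other clients.

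The livers came from C57BL6/J mice of 12 weeks, and each mouse gave 1 Affymetrix MTA 2.0 array. The groups were ENT3 -/- (KO) with title letter F, ENT3 -/- with title letter M, ENT3 +/+ (WT) with F and ENT3 +/+ with M, of 3 mice each. ENT3, encoded by Slc29a3, is a nucleoside transporter of lysosomes and mitochondria. The letters were read as sex, since the design states that mice were matched for age and gender. The labels say neither which part of the gene was deleted, nor in which cells, nor from which litters the mice came, and no group had any treatment. No label or header names a processing batch.

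Values are log2 signals as deposited, on a scale whose ceiling is 19.93, and a fold is given on that scale. Array medians ran between 3.76 and 3.89, and the 95th percentile of the negative control features, used here as the level below which a signal cannot be told from background, ran between 6.20 and 6.83. Slc29a3 averaged 4.13 in KO and 5.07 in WT livers (log2 difference -0.94 ± 0.07 SE, limma adjusted p = 0.000324), and lay within the negative control range in both genotypes. The poly-A spikes, transcripts added to each RNA before labelling, averaged 5.44 ± 0.36 in KO and 6.30 ± 0.32 in WT arrays (SD, n = 6 each), a two-sided exact permutation p of 0.005 within title letters, the smallest that 400 arrangements can give, and 0.0125 after Benjamini-Hochberg adjustment over 5 array measures. Of the other measures 3 differed as well, namely the negative control median by 0.14 (KO minus WT, adjusted p = 0.0125), the positive control median by -0.39 (0.0167) and the median of all transcripts by 0.07 (0.0188), while the hybridisation spikes differed by -0.09 (0.395). The level taken as background was thus higher on KO arrays. Of the hepatocyte markers, 5 of 9 lay at the ceiling and 0 of 9 passed the test, with 0 at an unadjusted p under 0.05. Of 10 Kupffer cell and macrophage markers 8 were higher in KO, and of 10 neutrophil markers 7 were higher. The other 5 marker lists (endothelium, stellate cell, cholangiocyte, lymphocyte and red cell) held 32 measured genes, of which 2 were lower and 4 higher in KO. The part of cell composition and of these control signals in the chaperone differences was not tested beyond the fit with the poly-A spikes as a covariate.

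The promoters are shown because HSF1 acts through them and because the measured genes differ in how many matches to heat shock element letters they hold. RefSeq windows on GRCm38.p6, from 250 bases before to 50 bases after the start site, existed for 6 of the 10 genes (8 windows). Hsf1, Hspa8, Hsp90aa1 and Hsp90ab1 had no window. The motifs searched were GAANNTTC and TTCNNGAA, each its own reverse complement, so that both strands are read at once, and matches may overlap. A match occurred in 4 of the 6 genes, against 16.97% of the 27025 genes with a window (15.06% of 32851 windows), a gene being counted once over its windows. The 3-unit form, in which both motifs overlap, occurred in 1 of the 6, Hsph1, whose 2 windows share 279 bases and the same matches, against 0.66% of genes (0.60% of windows). The Hsph1 window is chr5:149636287-149636586, with matches that begin 33 bases before and 36 and 41 bases after the start site. The Fkbp4 window is chr6:128438607-128438906, with 1 match that begins 151 bases before it. The Stip1 window is chr19:7039977-7040276, with no match. The Hspb8 window is chr5:116422815-116423114, with 1 match that begins 2 bases after it. All 4 windows lie on the minus strand and are printed 5′ to 3′ in gene direction, with the motif matches in capitals.
Hsph1: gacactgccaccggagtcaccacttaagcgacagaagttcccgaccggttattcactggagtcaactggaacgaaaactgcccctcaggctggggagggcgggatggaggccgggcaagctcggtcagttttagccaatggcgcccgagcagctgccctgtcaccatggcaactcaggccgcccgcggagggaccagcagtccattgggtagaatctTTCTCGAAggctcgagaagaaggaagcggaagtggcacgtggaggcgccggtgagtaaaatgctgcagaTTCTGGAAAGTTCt
Fkbp4: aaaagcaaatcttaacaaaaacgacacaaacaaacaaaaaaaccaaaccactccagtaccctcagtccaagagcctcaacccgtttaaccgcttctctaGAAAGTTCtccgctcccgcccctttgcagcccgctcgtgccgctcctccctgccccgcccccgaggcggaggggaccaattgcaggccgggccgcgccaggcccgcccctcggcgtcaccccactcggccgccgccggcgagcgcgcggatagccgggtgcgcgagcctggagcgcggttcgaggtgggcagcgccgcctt
Stip1: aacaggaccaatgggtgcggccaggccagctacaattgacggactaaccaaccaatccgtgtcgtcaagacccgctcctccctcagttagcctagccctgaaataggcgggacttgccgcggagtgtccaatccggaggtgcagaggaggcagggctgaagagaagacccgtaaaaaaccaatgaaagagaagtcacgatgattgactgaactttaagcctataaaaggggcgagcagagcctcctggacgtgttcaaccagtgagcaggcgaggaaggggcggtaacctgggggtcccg
Hspb8: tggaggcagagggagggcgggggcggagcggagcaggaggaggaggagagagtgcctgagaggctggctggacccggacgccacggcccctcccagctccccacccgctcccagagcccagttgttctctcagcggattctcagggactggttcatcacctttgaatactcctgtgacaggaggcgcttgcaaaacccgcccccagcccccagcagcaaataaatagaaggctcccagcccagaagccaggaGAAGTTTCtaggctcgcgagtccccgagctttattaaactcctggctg
A match describes letters only. Of the other windows, Hspb1 had 2 matches, 117 and 97 bases before its start site, and neither window of Dnajb1 had one.

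Across both letters, Stip1 and Fkbp4, which act at the HSP90 end of the machinery, fell in KO livers, to levels 2.43-fold and 2.39-fold lower than in WT livers on the deposited scale. Hsph1, an HSP70 partner, differed by -1.39 log2 units but did not pass, with a wide spread between mice. Hsp90aa1, Dnajb1 and Hspb1 differed by less, and Hspb8 differed in opposite directions in F and in M livers. In counts, 2 of the 7 genes were lower, 0 higher, and 5 did not pass (limma, Benjamini-Hochberg adjusted p under 0.05 over 65956 features). At an unadjusted p under 0.05 there were 5, and all 5 were lower. The share of all features at that threshold was not counted, here or for later counts, so the 5 cannot be set against it. Among the 5, Dnajb1 lay within the negative control range in every KO liver and Hspb1 in every liver. The p-values measure the spread between mice of a group. Over all features 4.47% were lower and 5.28% higher in KO, and among the 9308 features whose mean signal exceeded the negative controls 19.7% were lower. The median log2 difference was -0.46 over the 7 genes and 0.05 over all features. Because these are whole livers, fewer cells of a type and less RNA per cell cannot be told apart in any of these values.

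**Figure D1:**
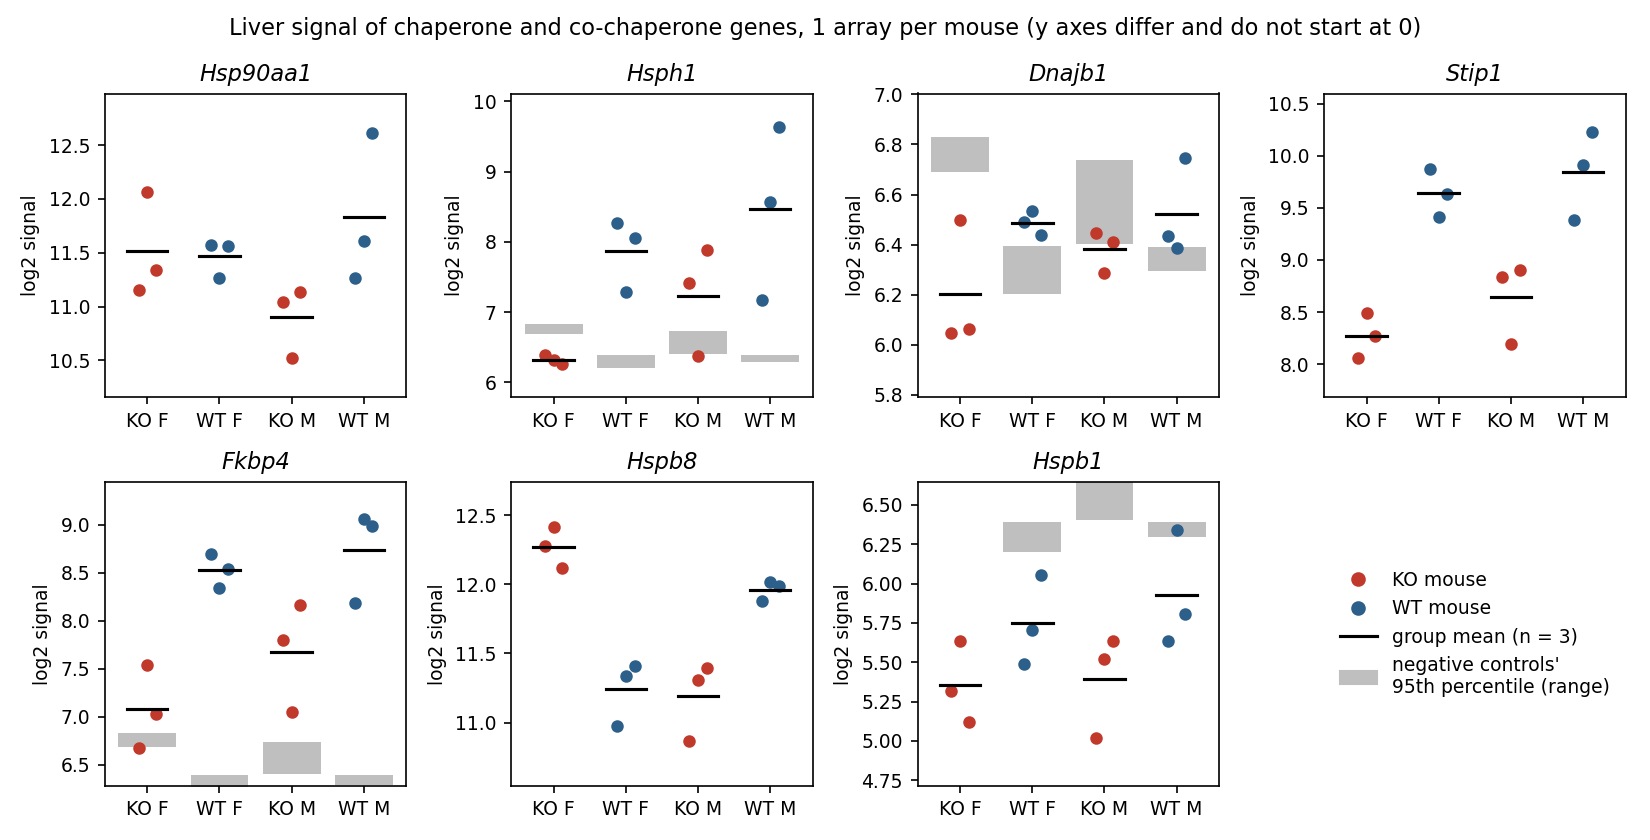
Log2 signal of the 7 genes below the ceiling in each mouse (points; KO red, WT blue), with the mean of each group of 3 (black line) and, where it falls inside the panel, the range of the negative controls' 95th percentile over the group's arrays (grey). The KO points of Stip1 and Fkbp4 lie below all WT points, the Hspb8 points change sides between F and M, and the Hspb1 points lie at or below the grey band.

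Stip1 encodes HOP, the adaptor that holds HSP70 and HSP90 together while a client passes between them. Its signal was 8.06, 8.49 and 8.27 in KO F livers, against 9.87, 9.41 and 9.64 in WT F livers. In M livers it was 8.84, 8.19 and 8.91 in KO, against 9.39, 9.91 and 10.22 in WT. Every KO liver lay below every WT liver. Stip1 averaged 8.46 ± 0.35 in KO and 9.74 ± 0.32 in WT livers (SD, n = 6 each), a log2 difference of -1.28 ± 0.17 (SE; 95% interval -1.67 to -0.89), or 2.43-fold lower (limma adjusted p = 0.00223). The signal exceeded the negative controls' 95th percentile on all 12 arrays. Stip1 remained lower, with its call, in 19 of 20 alternative fits, and the exception was the fit that took the poly-A signal of each array as a covariate, in which the difference was -1.83 ± 0.41 with an adjusted p of 0.207.

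Fkbp4 encodes FKBP52, a peptidyl-prolyl isomerase that sits on HSP90 in complexes with steroid hormone receptors. Its signal was 6.67, 7.54 and 7.03 in KO F livers, against 8.70, 8.34 and 8.54 in WT F livers. In M livers it was 7.80, 7.05 and 8.17 in KO, against 8.19, 9.06 and 8.99 in WT. The KO and WT livers did not overlap, though KO M mouse 39 came close to WT M mouse 17. KO F mouse 13 lay within the negative control range, and the other 11 arrays lay above it. Fkbp4 averaged 7.38 ± 0.56 in KO and 8.64 ± 0.35 in WT livers (SD, n = 6 each), a log2 difference of -1.26 ± 0.23 (SE; 95% interval -1.77 to -0.74), or 2.39-fold lower (limma adjusted p = 0.00807). It too held its call in 19 of 20 alternative fits and lost it with the poly-A covariate, at -1.91 ± 0.55 and an adjusted p of 0.333. Without KO M mouse 19 and WT F mouse 38 together, Stip1 differed by -1.17 (adjusted p = 0.00789) and Fkbp4 by -1.10 (adjusted p = 0.0274). Over all features 1.94% had every KO array below every WT array, and Stip1 and Fkbp4 were the 2 of the 7 genes that did.

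Hsph1 encodes HSP110, which exchanges the nucleotide on HSP70 and helps to pull aggregates apart. Its signal was 6.38, 6.32 and 6.26 in KO F livers, against 8.27, 7.29 and 8.05 in WT F livers. In M livers it was 7.42, 6.38 and 7.89 in KO, against 7.18, 8.57 and 9.64 in WT. The F groups were apart and the M groups overlapped, with KO M mice 18 and 39 above WT M mouse 17. All 3 KO F mice and KO M mouse 19 lay within the negative control range, so their values are upper bounds, whereas all 6 WT mice lay above it. Hsph1 averaged 6.77 ± 0.70 in KO and 8.17 ± 0.91 in WT livers (SD, n = 6 each), a log2 difference of -1.39 ± 0.40 (SE; 95% interval -2.28 to -0.50), and did not pass (limma adjusted p = 0.0570). It passed in 4 of 20 alternative fits, one of them without WT M mouse 17, where the difference was -1.71 and the adjusted p was 0.0129. The adjusted p ran between 0.0129 and 0.468 over the 20 fits, and the difference was negative in all of them.

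Hsp90aa1 encodes the stress-inducible cytosolic HSP90. Its signal was 11.15, 12.07 and 11.34 in KO F livers, against 11.58, 11.26 and 11.57 in WT F livers. In M livers it was 11.04, 10.52 and 11.13 in KO, against 11.27, 11.61 and 12.61 in WT. KO F mouse 40 was the highest F liver, and every KO M liver lay below every WT M liver. The log2 difference was -0.44 ± 0.24 over both letters (SE; 95% interval -0.98 to 0.10, limma adjusted p = 0.318), 0.05 ± 0.34 in F and -0.93 ± 0.34 in M (adjusted p = 0.959 and 0.274). The difference between the letters, 0.98 ± 0.48, did not pass (adjusted p = 0.784). A further 2 features carry Hsp90aa1 beside another symbol, so that they may read a related sequence, and one of them is brighter (mean 11.87, against 11.43 for the feature used). Their Hsp90aa1 differences were larger, at -0.65 and -0.97 over both letters (adjusted p = 0.244 and 0.0712) and at -1.37 and -1.40 in M livers (0.196 and 0.172), and neither passed. Dnajb1, a J-domain protein that delivers clients to HSP70, ran between 6.05 and 6.50 in KO and between 6.39 and 6.75 in WT livers. The 6 KO values of Dnajb1 were within the negative control range and the 6 WT values were above it, although the 2 genotypes' values overlapped. Its log2 difference was -0.21 ± 0.09 (SE, limma adjusted p = 0.204), and it passed without KO F mouse 40 (-0.29, adjusted p = 0.0414).

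Small heat shock proteins hold unfolding clients without ATP. Hspb8, which works with BAG3 in chaperone-assisted autophagy, had signals of 12.28, 12.42 and 12.12 in KO F livers, against 10.98, 11.33 and 11.41 in WT F livers. In M livers Hspb8 had 10.87, 11.31 and 11.40 in KO, against 11.88, 12.02 and 11.99 in WT. The genotypes were apart in both letters, with KO on top in F and at the bottom in M. Ordered by mean level, KO F (12.27 ± 0.15) and WT M (11.96 ± 0.07) formed the upper pair and WT F (11.24 ± 0.23) and KO M (11.19 ± 0.28; SD, n = 3 each) the lower pair. The ranges of WT F and KO M overlapped, whereas every KO F value stood above every WT M value. Hspb8 rose in KO F livers by 1.03 ± 0.15 log2 units (SE; 95% interval 0.68 to 1.37), or 2.04-fold (limma adjusted p = 0.00576). The call held in all 12 fits that left out 1 mouse and was lost with the poly-A covariate (1.11 ± 0.30, adjusted p = 0.233). In M livers the difference was -0.77 ± 0.15 (95% interval -1.12 to -0.43) and missed the threshold (adjusted p = 0.0504), which it passed without WT F mouse 25 (adjusted p = 0.0365). The difference between the letters was 1.80 ± 0.22 (95% interval 1.31 to 2.29) and also missed it (adjusted p = 0.0608). Averaged over both letters the difference was 0.13 ± 0.11 (adjusted p = 0.543). The other small heat shock protein, Hspb1, ran between 5.02 and 5.64 in KO and between 5.49 and 6.34 in WT livers, and none of the 12 values exceeded the negative controls' 95th percentile, so no fold is given (log2 difference -0.46 ± 0.17, limma adjusted p = 0.118).

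Within F livers 2 of the 7 genes were lower (Stip1 and Fkbp4), 1 was higher (Hspb8) and 4 did not pass, where 3.06% of all features were lower and 3.13% higher. Within M livers 0 of the 7 passed by limma, 5 had an unadjusted p under 0.05, and 0.506% of all features were lower. Stip1 differed by -1.37 ± 0.25 in F and by -1.20 ± 0.25 in M livers (adjusted p = 0.0124 and 0.0550; with the poly-A covariate the F difference was -1.90 and lost its call), and the difference between the letters was -0.17 ± 0.35 (95% interval -0.95 to 0.60). Fkbp4 differed by -1.45 ± 0.33 in F and by -1.07 ± 0.33 in M livers (adjusted p = 0.0308 and 0.181), and the difference between the letters was -0.37 ± 0.46 (95% interval -1.40 to 0.65). The F call of Fkbp4 was lost in 5 of the 12 fits that left out 1 mouse, those without KO F 13, KO F 69, WT F 25, WT F 27 or WT F 38, with an adjusted p of up to 0.0987. The M difference of Stip1 passed without WT M mouse 17 (adjusted p = 0.0459). For the test between letters, 0.00152% of features, a single one, passed, and 0 of the 7 genes did by limma, with 1 at an unadjusted p under 0.05 (Hspb8). Counting by separation alone, 3 of the 7 genes had every KO F array below every WT F array (Hsph1, Stip1 and Fkbp4), against 8.35% of features. In M livers 4 of the 7 did (Hsp90aa1, Hspb8, Stip1 and Fkbp4), against 7.49%.

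**Figure D2:**
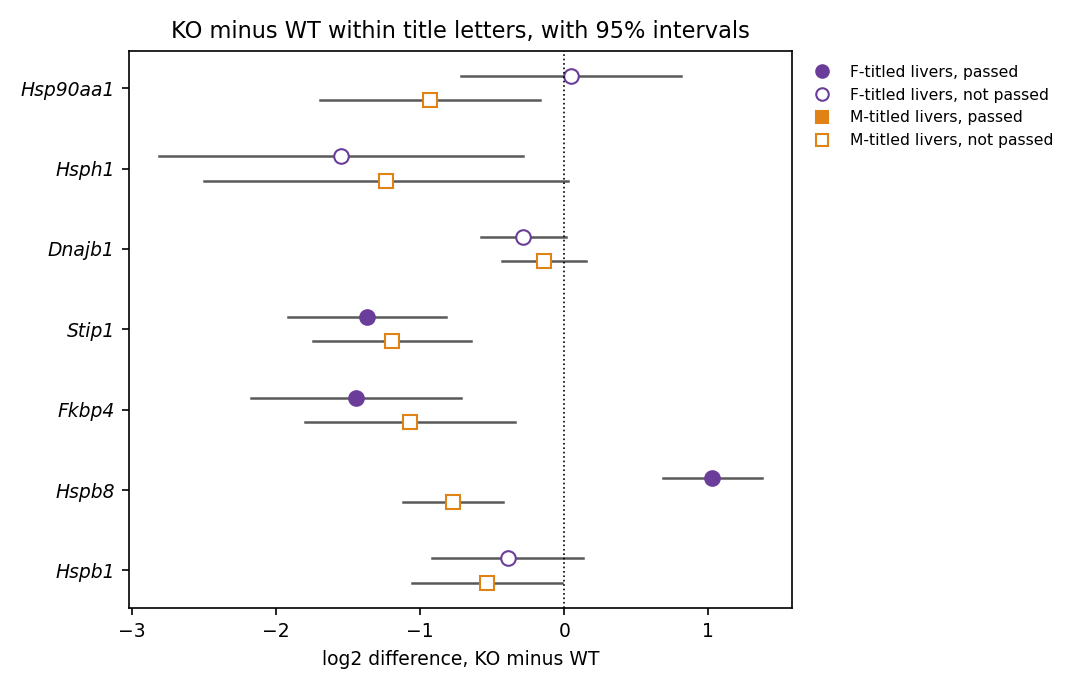
Log2 difference, KO minus WT, of each gene in F livers (circles) and M livers (squares), with 95% intervals from the model; filled symbols passed at an adjusted p under 0.05. Stip1 and Fkbp4 lie below 0 in both letters, and Hspb8 lies at 1.03 in F and at -0.77 in M.

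The mice of a group also differed among themselves, and several of the genes moved together there. After each group's mean was subtracted, the deviations of Stip1 and Fkbp4 correlated at r = 0.92 over the 12 arrays, and at 0.95 without the 2 arrays farthest from the Stip1 median. Those of Hsph1 and Stip1 correlated at 0.91, and at 0.86 without 2 arrays. Those of Hsp90aa1 and Stip1 correlated at 0.87, and at 0.81 without 2 arrays. KO M mouse 19 and WT M mouse 17 lay lowest against their groups for Stip1, Fkbp4 and Hsph1. Hspb8 did not follow them, at -0.12 with Stip1, and its deviations ran instead with those of Hspb1 at 0.84, and at 0.91 without 2 arrays. Hspb1 lay within the negative control range on all 12 arrays. Without subtraction of group means Hspb8 and Hspb1 stood at 0.18, and at -0.30 without 2 arrays. The cold-inducible RNA-binding protein Cirbp, above the negative controls on 7 of the 12 arrays, ran against Stip1, at -0.88 and, without 2 arrays, -0.93. Rbm3, the other protein of that kind, stood at -0.53 with Stip1 and at -0.33 without 2 arrays. These are descriptions chosen from 42 pairs, and the genes of a pair share the liver, the array and its normalization. The deviations of the poly-A spikes correlated at -0.45 with those of Stip1, at -0.40 with Fkbp4 and at -0.41 with Hsph1. Without subtraction of group means the sign was the reverse, at 0.76 with Stip1, 0.72 with Fkbp4 and 0.64 with Hsph1. The latter r also contains the difference between genotypes.

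**Figure D3:**
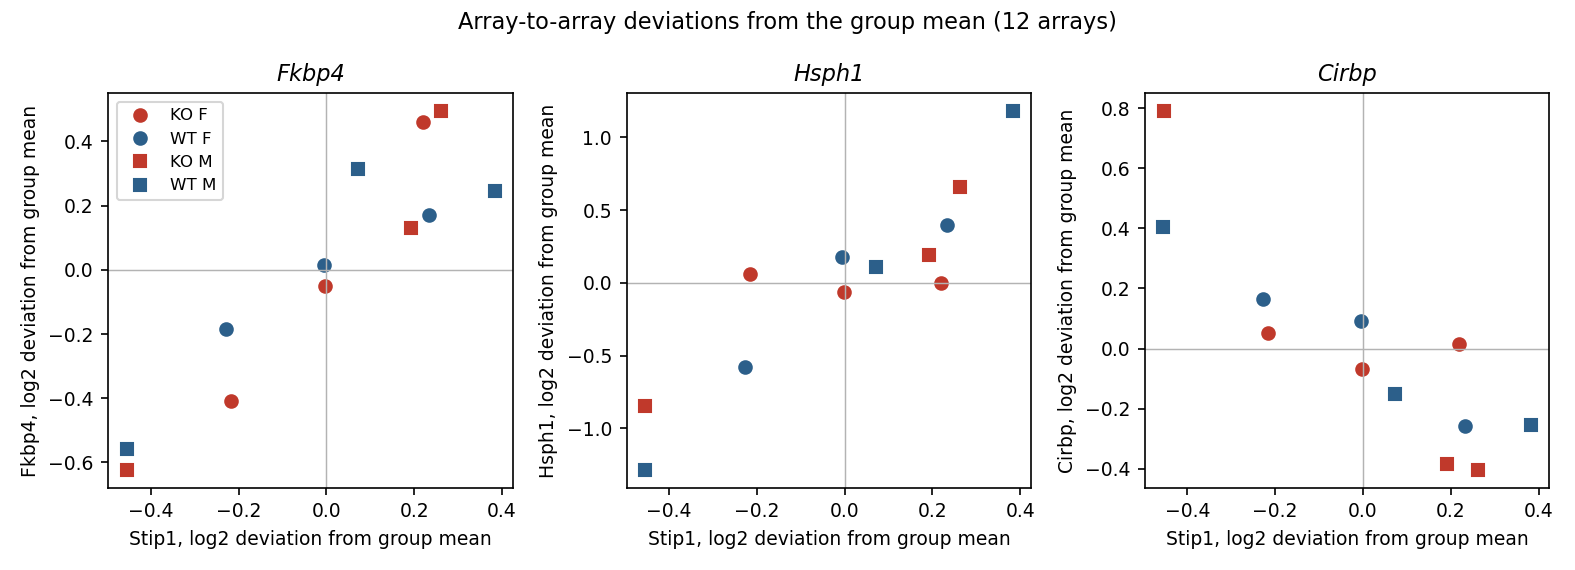
Deviation of Fkbp4, Hsph1 and Cirbp from the mean of their group (y axes, log2) against that of Stip1 (x axes, log2) for 12 arrays; KO red, WT blue, F circles, M squares. Fkbp4 and Hsph1 run with Stip1 (r = 0.92 and 0.91) and Cirbp runs against it (r = -0.88). Cirbp exceeded the negative controls on 7 of the 12 arrays.

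Hsph1 varied most over the 12 arrays among the 7 genes, and the 19145 protein-coding genes were ranked by their likeness to it. The 5 with the highest Pearson r over the 12 arrays were Lima1 (r = 0.95), Smarcc2 (0.95), Bcr (0.95), Pex26 (0.95) and Ccdc189 (0.93). Of these, Lima1 and Smarcc2 exceeded the negative controls on all 12 arrays and Bcr on 2, while Pex26 and Ccdc189 did so on 0, so the last 3 are ranked on signal at background. After subtraction of the group means the 5 stood at 0.94, 0.90, 0.88, 0.90 and 0.94. Chordc1, Stip1 and Fkbp4 ranked at 17, 23 and 34, with r = 0.91, 0.91 and 0.90. The r over all arrays contains the difference between genotypes as well as that between mice.

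The wider chaperone network was described through 13 lists, with 139 of 153 genes measured. Of these 25 were lower, 8 higher and the rest did not pass, and the median log2 difference was -0.02. Of the called list genes, 4 of the 25 lower and 3 of the 8 higher lay within the negative control range on all arrays. Over all features 4.47% were lower and 5.28% higher in KO. Among features whose mean signal exceeded the negative controls 19.7% were lower. These shares also stand beside the counts of the single lists below. Of the 31 genes outside the 7 that passed and are named by the rule or added to it, Slc29a3 included, 0 passed by limma with the poly-A covariate, where 3 of all features did. Among the other HSP90 co-chaperones 7 of 21 were lower and 1 higher, with a median of -0.14. Sugt1, an adaptor of HSP90, fell by 0.47 ± 0.07 (SE, limma adjusted p = 0.00275), and Sgta, which handles tail-anchored membrane proteins, fell by 1.04 ± 0.16 (adjusted p = 0.00362). Fkbp8 and Pih1d1 were lower as well, at -0.54 and -0.28, Fkbp8 with 1 of 6 KO arrays above the negative controls. Chordc1, an HSP90-binding protein named here after its values were seen, had signals of 6.18, 7.14 and 6.42 in KO F livers, against 9.92, 8.50 and 8.97 in WT F livers. In M livers Chordc1 had 8.98, 6.62 and 8.87 in KO, against 8.69, 9.67 and 10.06 in WT, so that mice 18 and 39 overlapped WT M mouse 17, as they did for Hsph1. For Chordc1, KO F mice 13 and 69 lay within the negative control range, so their values are upper bounds. Chordc1 differed by -1.94 ± 0.45 (limma adjusted p = 0.0238). This call was lost in 5 of the 12 fits that left out 1 mouse (adjusted p of up to 0.0606). Those were the fits without KO F 13, KO F 69, WT F 25, WT M 23 or WT M 33. Ahsa1, which stimulates the ATPase of HSP90, differed by -0.16 and did not pass (adjusted p = 0.427).

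Of the cofactors that act on HSP70, 3 of 8 were lower and 0 higher, namely Hspbp1 (-0.81), Bag4 (-0.52) and Bag6 (-0.31). Hspbp1 held its call in all 12 fits that left out 1 mouse, whereas Bag4 lost it in 5 of them and Bag6 in 8. Of the 6 KO arrays only 1 was above the negative controls for Hspbp1 and for Bag6, against all 6 WT arrays, so the KO levels are mostly upper bounds. Bag3, the partner of Hspb8, differed by -0.40 and did not pass (limma adjusted p = 0.126). Of the cytosolic HSP70 relatives, 0 of 9 passed, with 1 at an unadjusted p under 0.05, and 6 of the 9 lay within the negative control range on all arrays. Hspa4, the brightest of them, differed by 0.03, and the inducible Hspa1a averaged 3.76 in KO and 3.79 in WT livers, within the negative control range. Hspa1a shares nearly all its sequence with Hspa1b, so its feature may read both. Of 16 J-domain proteins, with a median of 0.09, 2 were lower (Dnajb2 and Dnajb14, at -0.23 and -0.24) and 2 higher (Dnajb6 and Dnajc8, at 0.34 and 0.45). Dnajb2, Dnajb14 and Dnajb6 lay within the negative control range on all 12 arrays and Dnajc8 on 11, so these differences are between signals that cannot be told from background. Dnajb14 lost its call in 10 of the 12 fits without 1 mouse. Of 8 other small heat shock proteins 0 passed, with 3 at an unadjusted p under 0.05, and 7 of the 8 lay within the negative control range on all arrays. Hspb6, the remaining one, differed by -1.17 (limma adjusted p = 0.0731). For Hspb6, 0 of 6 KO arrays and 4 of 6 WT arrays exceeded the negative controls, so the size of that difference is not settled.

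In mitochondria 4 of 11 chaperones and proteases were lower and 0 higher, with a median of -0.23. Trap1, the mitochondrial HSP90, had signals of 10.25, 10.11 and 10.08 in KO F livers, against 11.16, 11.27 and 11.63 in WT F livers. In M livers Trap1 had 10.24, 10.69 and 10.74 in KO, against 11.14, 11.64 and 11.58 in WT, so the genotypes did not overlap. The difference was -1.05 ± 0.13 (SE, limma adjusted p = 0.00135). Of TRiC and prefoldin, which fold actin and tubulin, 4 of 13 were lower and 0 higher, Cct3 by -0.71. Of 13 chaperones of the endoplasmic reticulum 0 passed over both letters, with 2 at an unadjusted p under 0.05. Within F livers 2 of the 13 were lower and 0 higher, where 3.06% of all features were lower. Within M livers 0 passed. The median was -0.41 in F and 0.30 in M livers. BiP, encoded by Hspa5, differed by -0.35 over both letters (limma adjusted p = 0.245) and Hsp90b1 by 0.21. In F livers BiP differed by -0.88 and in M livers by 0.17 (limma adjusted p = 0.0589 and 0.852). Its difference between the letters did not pass (limma adjusted p = 0.559).

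Upstream, 2 of 8 genes of the HSF family and its modulators were lower and 0 higher. Of the 8, 5 lay within the negative control range on all arrays. Hsf2, a relative of HSF1 that binds the same element, had signals of 6.20, 6.28 and 6.00 in KO F livers, against 7.59, 7.28 and 7.58 in WT F livers. In M livers Hsf2 had 7.07, 6.45 and 7.03 in KO, against 7.27, 7.46 and 7.48 in WT, and no KO liver reached a WT liver. The log2 difference of Hsf2 was -0.94 ± 0.12 (SE, limma adjusted p = 0.00160), with all 3 KO F values within the negative control range and so upper bounds. Hikeshi, which carries HSP70 into the nucleus, was the other called gene, at -0.45, but lay within that range on all 12 arrays and lost its call without WT F mouse 38 (adjusted p = 0.0575). Of 8 other known HSF1 targets 0 were lower and 2 higher, with a median of 0.03. Of the 8, 1 lay at the ceiling on all arrays. A further 3 (Serpinh1, Dedd2 and Ier5) lay within the negative control range on all arrays, so a fall could not be measured for these. The higher ones were Hmox1, which degrades haem, at 3.44 ± 0.55 (limma adjusted p = 0.00425), and Rgs2, a regulator of G protein signalling, at 2.10. For Rgs2 only 1 of 6 WT arrays exceeded the negative controls, against 5 of 6 KO arrays, so the size of that difference is not settled. The macrophage markers moved in the same direction as Hmox1. Their mean log2 level ran between 10.65 and 13.33 in KO F, 7.97 and 8.97 in WT F, 9.32 and 11.08 in KO M and 7.55 and 8.55 in WT M livers. The neutrophil markers ran between 7.48 and 7.93 in KO F, 4.42 and 4.49 in WT F, 5.12 and 8.47 in KO M and 4.17 and 4.76 in WT M livers, while 5 of the 10, among them Ly6g and Mpo, lay within the negative control range on all arrays. Their part in the differences was not tested.

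Among the transcripts of 9 clients of HSP90, 3 were lower and 0 higher, with a median of 0.09. Within F livers 2 of the 9 were lower and 1 higher. Ahr, the aryl hydrocarbon receptor, differed by -1.21 over both letters, by -2.33 in F and by -0.08 in M livers. The difference of Ahr between the letters, -2.25 ± 0.48 (SE), did not pass (limma adjusted p = 0.336). Over both letters Met, the receptor of hepatocyte growth factor, differed by -0.80, and the cell cycle kinase Cdk4 by -0.37. The calls of Ahr and Met were lost in the fit with no term for the title letter (adjusted p = 0.201 and 0.250), and that of Cdk4 in 10 of the 12 fits without 1 mouse. Of the cold-inducible pair, Rbm3 had signals of 11.07, 10.99 and 10.93 in KO F livers, against 10.04, 9.98 and 9.70 in WT F livers. In M livers Rbm3 had 11.18, 10.92 and 10.27 in KO, against 10.37, 10.04 and 9.59 in WT. KO M mouse 39 lay below WT M mouse 17, and the F groups were apart. Rbm3 rose by 0.94 ± 0.17 (SE, limma adjusted p = 0.00731), and Cirbp differed by 0.76 ± 0.21 and missed the threshold (adjusted p = 0.0502). Only 4 KO and 3 WT arrays exceeded the negative controls for Cirbp. Of 13 immediate early genes 0 were lower and 2 higher, Ier3 and Myc, both named after their values were seen, and Myc lost its call in 9 of the 12 fits without 1 mouse. Of the 13, 8 lay within the negative control range on all 12 arrays, Ier3 among them, and Myc lay within it on 10.

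**Figure D4:**
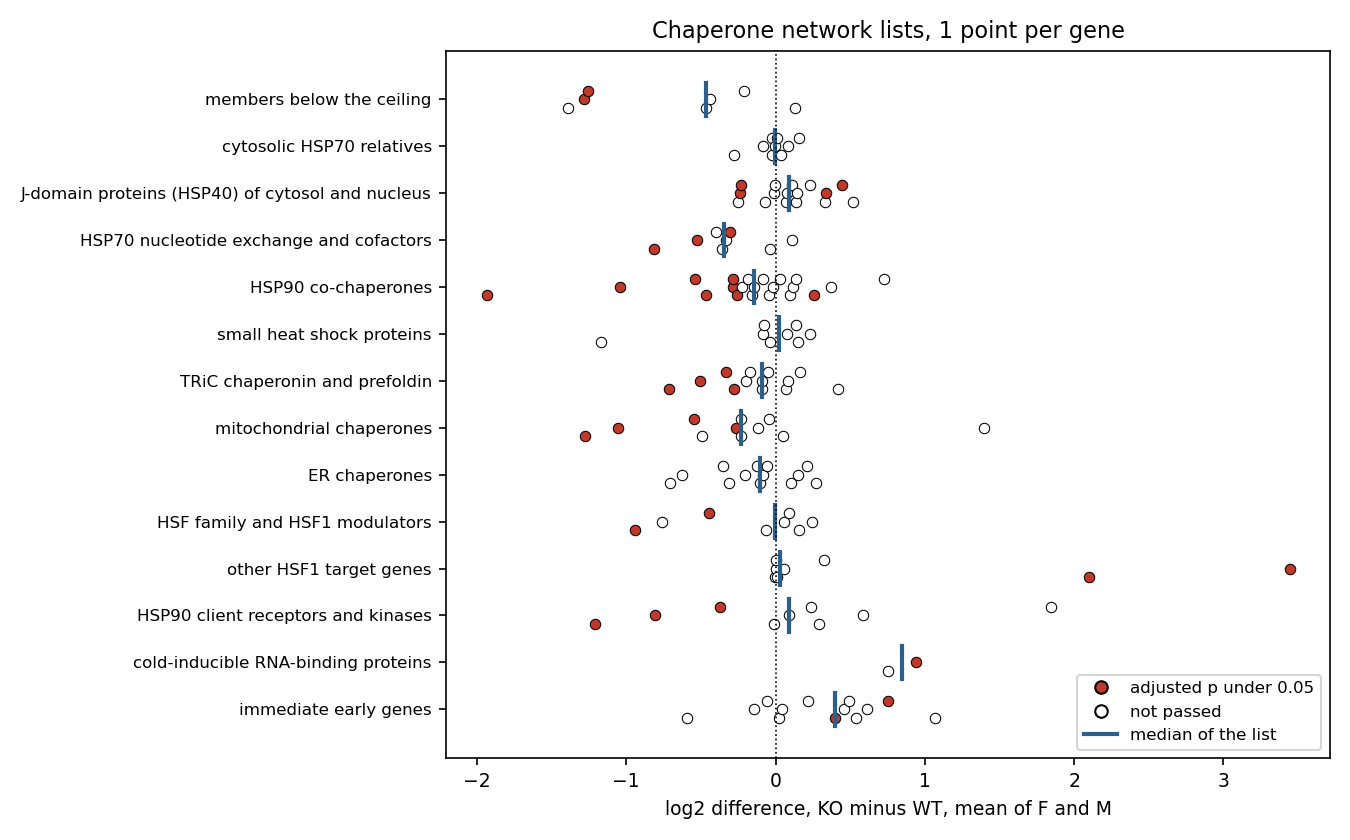
Log2 difference, KO minus WT averaged over F and M, of the 7 genes below the ceiling (top row) and of each measured gene of 13 chaperone network lists; filled points passed at an adjusted p under 0.05 and bars mark the median of each list. Filled points number 25 to the left of 0 and 8 to the right among the lists; those of the co-chaperones lie 7 to the left and 1 to the right, and those of the other HSF1 targets lie 2 to the right.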

How the data were processed

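Liver RNA of 12 mice was labelled with biotin and hybridised to 1 Affymetrix MTA 2.0 array per mouse. The values are log2 signals from the deposited series table, and the submitters' processing notes name Transcriptome Analysis Console. For its version, summary method and normalization, nothing is stated. Scanner files were not used here. The table holds 72688 features, of which 6732 are controls and 65956 were tested. Of the latter 31258 have 1 symbol, 1492 several and 33206 none in the platform annotation, after old symbols were updated through unique RefSeq synonyms.

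With limma 3.58.1 (R 4.3.3), a model with 4 group means was fitted to the 12 arrays together (8 residual degrees of freedom), without further normalization or filter, and the mean KO minus WT difference over both letters, the difference within each letter and the difference between letters were tested with Benjamini-Hochberg adjustment over all tested features. The fit was tested on simulated data. Array measures were compared by an exact permutation test within letters (400 arrangements). A gene stands for its brightest feature with 1 symbol. Named list genes were up to 4 per list with the smallest p among those that passed, or the brightest where none passed, at most 30 in all, plus Cirbp, Rbm3, Hspa5, Hsp90b1, Bag3, Hspa1a, Hspa1b, Ahsa1 and Slc29a3. Hspa1b is not analysed here. The genes and lists were chosen with earlier results of these data known. The number of arrays limits the precision. Alternatives covered normalization, a poly-A covariate, a filter on low signal, variance modelling, array weights, left-out mice, the letter term and a 1.5-fold minimum.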

Additional observations from a re-analysis of the deposited data

Results flagged for a closer look

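Hspb8, the small heat shock protein that works with BAG3, differed in opposite directions in the 2 letters: all 3 KO F mice lay above all 3 WT F mice, and all 3 KO M mice lay below all 3 WT M mice. The KO minus WT difference in F livers exceeded that in M livers by 1.80 log2 units (SE 0.22), with a limma adjusted p of 0.0608 over all features. Between letters this passed with the filter on low signal (adjusted p = 0.0305) and in 3 of the 12 fits without 1 mouse, those without KO F 40, KO M 19 or WT F 38 (adjusted p between 0.0353 and 0.184 over the 12 fits, with differences between 1.64 and 1.90).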

How the results depend on the processing

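No paired analysis was possible because no animal number is shared between the groups. No result changed direction past the threshold under the alternatives run. For single chaperone genes of the 7, 501 repeats kept their side of the threshold, 19 gained a call and 11 lost one. With each array's poly-A signal as a covariate the features called fell to 3 over both letters (6432 without it), to 74 in F (4083) and to 0 in M (716), and 5 differed between letters (1 without it). The chaperone genes called lower were then 0 over both letters and 0 in F (2 each without it), and those called higher in F were 0 (1 without it); the spikes differ between the genotypes, and the cause was not tested. A 1.5-fold minimum left 3661 features over both letters. Without KO M 19 and WT F 38 together, 1959 features were called in F, with 1 chaperone gene lower, 1130 in M, and 57 between letters. In M livers array weights called 1087 features, the low-signal filter 1501 and quantile normalization 1089, and these 3 and median centring each called 2 chaperone genes lower, Stip1 and Hspb8. Between letters 0 features passed with array weights, 0 with an intensity trend and 0 with quantile normalization, 4 with median centring and 21 with the filter, which called 1 chaperone gene higher (Hspb8). Leaving out 1 mouse at a time gave 4553 to 6599 features over both letters (chaperone genes lower 2 to 3), 1581 to 4563 in F (lower 1 to 2, higher 1), 161 to 938 in M (lower 0 to 1) and 0 to 55 between letters (higher 0 to 1); the lowest counts in F and M were without WT F 38 and without WT M 23, and the highest between letters without KO F 40. The mean over all features with 1 symbol gave no other value for the 7 genes, each of which has 1 such feature; the 2 Hsp90aa1 features shared with another symbol differed by -0.65 and -0.97 over both letters. Signal over background limits Hspb1, Dnajb1 and, in KO F, Hsph1. The ceiling hides Hspa8 in the features that carry it as their only symbol.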
